A study of Homo sapiens with 6 samples.

Results

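The genes studied belong to the hemidesmosome and to its ligand laminin-332, and number 8: ITGB4, ITGA6, PLEC, DST, COL17A1, CD151, LAMA3 and LAMB3. They were taken by gene symbol from a table of 15024 genes, and all 8 symbols were found in it, once each. The libraries came from MDA-MB-231 cells, a long-established line of human triple-negative breast cancer with a mesenchymal look, carrying an Mll3-null genotype (MLL3 is the histone methyltransferase encoded by KMT2C). All cells had been grown with 10 µM forskolin, which activates adenylyl cyclase and so protein kinase A, for 14 days. They were sorted into a Mll3-null CD44+CD104high population (3 libraries, called CD104high below) and a Mll3-null CD44+CD104-/low population (3 libraries, called CD104-/low below). The study's design describes the first as a hybrid state between epithelial and mesenchymal and the second as mesenchymal. Neither population was compared with wild-type or untreated cells here, and the labels do not say whether the line was 1 clone. They call the replicates biological without naming separate cultures, so p-values measure only the spread between these libraries.

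Hemidesmosomes are plaques that fasten the base of an epithelial cell to the basement membrane. The integrin alpha-6 (ITGA6) and beta-4 (ITGB4) chains bind laminin-332 outside the cell, and the long tail of beta-4 binds plectin (PLEC), which holds the keratin filaments inside. Dystonin (DST, the gene of the epithelial BPAG1e protein among other isoforms), collagen XVII (COL17A1) and the tetraspanin CD151 complete the plaque. LAMA3 and LAMB3 encode the alpha-3 and beta-3 chains of laminin-332. CD104, the protein on which the cells were sorted, is integrin beta-4 itself.

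In CD104high cells 5 of the 8 genes rose and 0 fell, by limma at an adjusted p under 0.05 over all 14420 genes tested. All 8 passed the filter on low values (a scaled read count of at least 10 in at least 3 libraries). Among all genes tested 43.4% were called, 21.8% higher in CD104high and 21.6% lower. By edgeR on recovered reads the same 5 genes were called higher, against 20.5% of all genes. Every CD104high library lay above every CD104-/low library for 6 of the 8 genes, ITGB4 among them, and below for 0. Over all genes these shares were 27.4% and 26.9%. ITGB4 belongs to the sort, and without it 4 of 7 were called. The genes that rose were ITGB4, ITGA6, LAMA3, PLEC and DST, while COL17A1, CD151 and LAMB3 did not pass. The median log2 fold change was 0.60 for the 8 genes and 0.55 without ITGB4, against 0.02 for all genes tested. These medians were 0.28, 0.27 and 0.01 in values adjusted for transcript length and GC content. After adjustment for transcript length and GC content 4 of the 8 were called higher and 0 lower, against 19.6% and 21.1% of all genes. Without ITGB4 it was 3 of 7, and PLEC was the gene that lost its call.

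The deposited values are whole multiples of 1 step per library, as read counts divided by a size factor would be, and are called scaled read counts here. Recovered reads over the listed genes came to between 53878182 and 60069719 in CD104high libraries and between 49791498 and 54969422 in CD104-/low libraries. The 8 genes together took 0.663%, 0.668% and 0.549% of them in replicates 1, 2 and 3 of CD104high, against 0.363%, 0.439% and 0.359% in CD104-/low, and PLEC alone made up most of that share. KMT2C, the targeted gene, gave 3561 to 3952 scaled reads in CD104high and 2095 to 2814 in CD104-/low, and a whole-gene value does not check a deletion of part of it. KMT2C passed as higher in CD104high (log2 fold change 0.62, limma adjusted p = 0.0027), and the cause was not tested. VIM, a marker of the line's mesenchymal type, averaged 21251 in CD104high and 20323 in CD104-/low. CDH1, ESR1 and PGR were looked for and were not in the table, and ERBB2 averaged 8165 in CD104high and 6519 in CD104-/low. KRT18 and KRT19, keratins of simple epithelia, rose by 0.34 and 0.45 on the log2 scale, while the epithelial markers KRT8 (0.20) and EPCAM (-0.32) did not pass. Of 4 mesenchymal markers FN1 rose, by 1.52, and VIM (0.06), CDH2 (0.15) and ZEB1 (0.15) did not pass. Of 6 leukocyte markers only LAPTM5 and CD14 were in the table, and their sum was 679 to 936 scaled reads in CD104high, against 320 to 404 in CD104-/low. Both passed, LAPTM5 with a rise of 1.15 (limma adjusted p = 0.00148) and CD14 with 0.91 (limma adjusted p = 0.00446). Of 3 endothelial markers 2 were in the table, with sums of 65.9 to 98.3 in CD104high and 53.3 to 91.0 in CD104-/low, and of 3 erythroid markers 0 were. The part of these markers in the results was not tested. In sorted bulk samples, a larger share of expressing cells and more RNA per cell cannot be told apart.

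**Figure D1:**
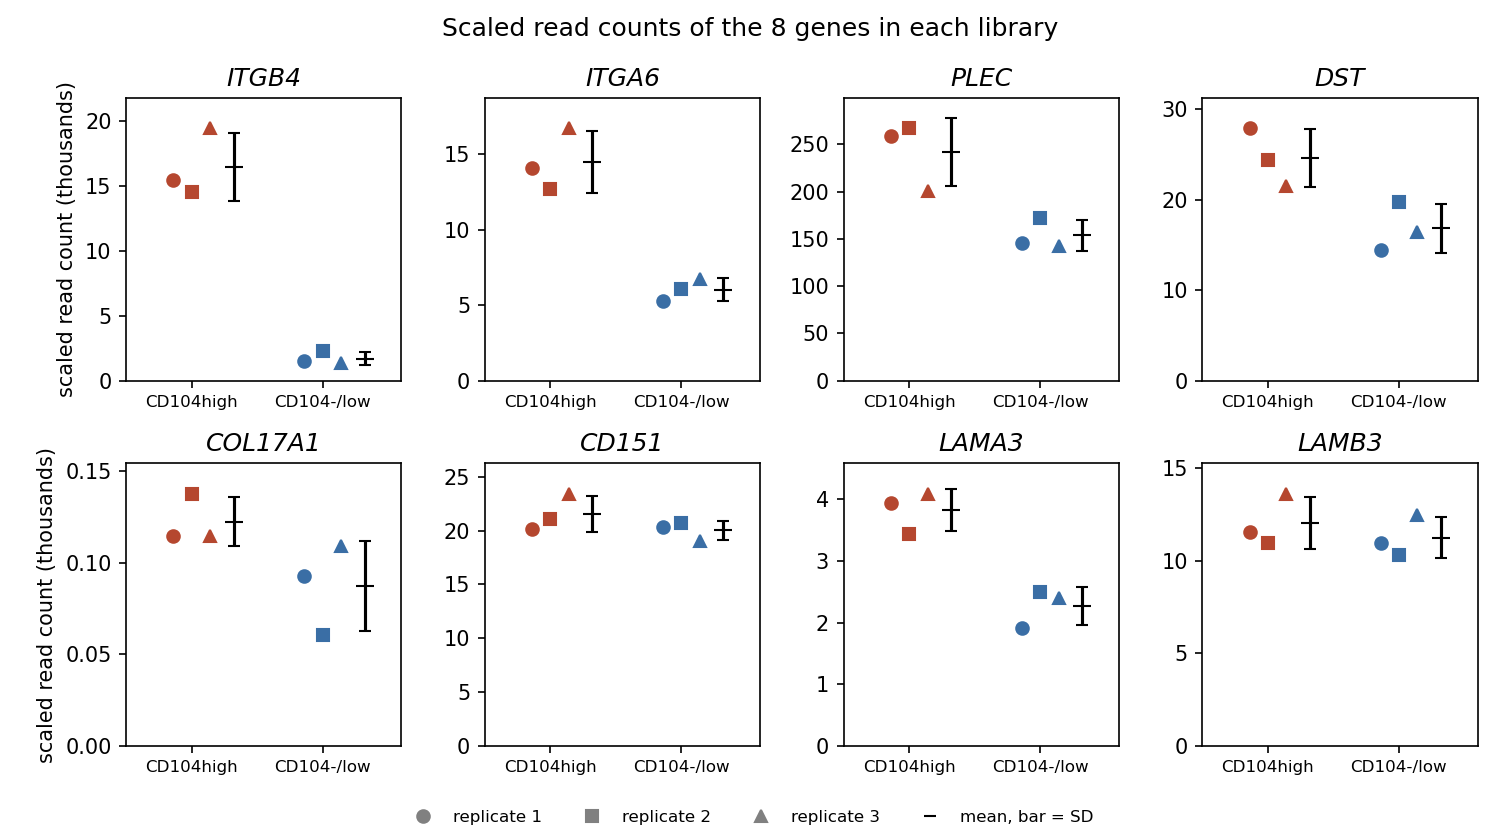
Scaled read counts (kilo-counts, linear axes from 0, each gene on its own scale) of the 8 genes in each library, CD104high at the left and CD104-/low at the right of each panel. Symbols mark replicates, and the black bar is the mean with its SD (n = 3). Every CD104high library lies above every CD104-/low library for 6 genes, and the populations overlap for CD151 and LAMB3.

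ITGB4 (ENSG00000132470.14; GRCh38 chromosome 17, 75721328 to 75757818, plus strand) had 15445, 14508 and 19435 scaled reads in replicates 1, 2 and 3 of CD104high, against 1492, 2273 and 1333 in those of CD104-/low. The populations lay far apart, with replicate 3 the highest of CD104high and replicate 2 the highest of CD104-/low. The log2 fold change of 3.30 (SE 0.19), a 9.87-fold difference on the log2(value + 1) scale, ranked 3 from the top among all 14420 genes. It is given as a check of the labels and without weight on a test, since the gate was set on its protein. The CD104-/low libraries had 1699 ± 503 scaled reads listed for ITGB4 (SD, n = 3). The gene overlaps GALK1 on the opposite strand, which averaged 2526 scaled reads over the 6 libraries, and whether its reads add to those of ITGB4 was not tested.

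ITGA6 (ENSG00000091409.15; chromosome 2, 172427354 to 172506282, plus strand) encodes the only alpha chain that pairs with beta-4, and its RNA was not part of the gate. It had 14091, 12665 and 16719 scaled reads in the CD104high replicates, against 5278, 6079 and 6756 in the CD104-/low replicates. The lowest CD104high library was well above the highest CD104-/low library. ITGA6 rose 2.4-fold (log2 fold change 1.26, SE 0.12, limma adjusted p = 0.000275), and 3.21% of the tested genes had a larger log2 fold change. With the length and GC adjustment its log2 fold change was 1.24.

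ITGA6 can also pair with the beta-1 chain. ITGB1 (chromosome 10, 32900319 to 33005792) had 74489, 79973 and 80185 scaled reads in CD104high, against 69818, 74200 and 69962 in CD104-/low, and did not pass, although the populations just failed to overlap (log2 fold change 0.13, SE 0.06, limma adjusted p = 0.125). ITGB1 passed with the length and GC adjustment, at 0.28 (limma adjusted p = 0.00985). The log2 ratio of ITGA6 to ITGB1 within a library was -2.44 ± 0.20 in CD104high and -3.57 ± 0.18 in CD104-/low (SD, n = 3 each). The difference of 1.13 had an exact two-sided permutation p of 0.1, the smallest that 3 against 3 allows, and 0.125 adjusted over the 5 ratios tested. ITGA3, the other alpha chain of laminin-332 receptors and a partner of beta-1, had 114754, 119081 and 120278 scaled reads in CD104high, against 82290, 79389 and 80662 in CD104-/low. It rose by 0.55 on the log2 scale (SE 0.06, limma adjusted p = 0.000444), and by 0.25 with the length and GC adjustment.

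CD151, the tetraspanin that associates with alpha-3 and alpha-6 integrins in the membrane, lies on chromosome 11 (832843 to 839831, plus strand). It had 20198, 21072 and 23452 scaled reads in CD104high, against 20301, 20722 and 19044 in CD104-/low. The populations overlapped, and the log2 fold change was 0.11 with a 95% interval of -0.06 to 0.27 (limma adjusted p = 0.264). ITGA6 relative to CD151 had a log2 ratio of -0.58 ± 0.13 in CD104high and -1.74 ± 0.23 in CD104-/low (SD, n = 3 each; exact permutation p = 0.1, the smallest possible, and 0.125 adjusted over 5 ratios). CD151 shares its locus with POLR2L on the opposite strand, as ITGB4 does with GALK1. No source used here states a strand setting for the counting, so reads of such pairs may be mixed.

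**Figure D2:**
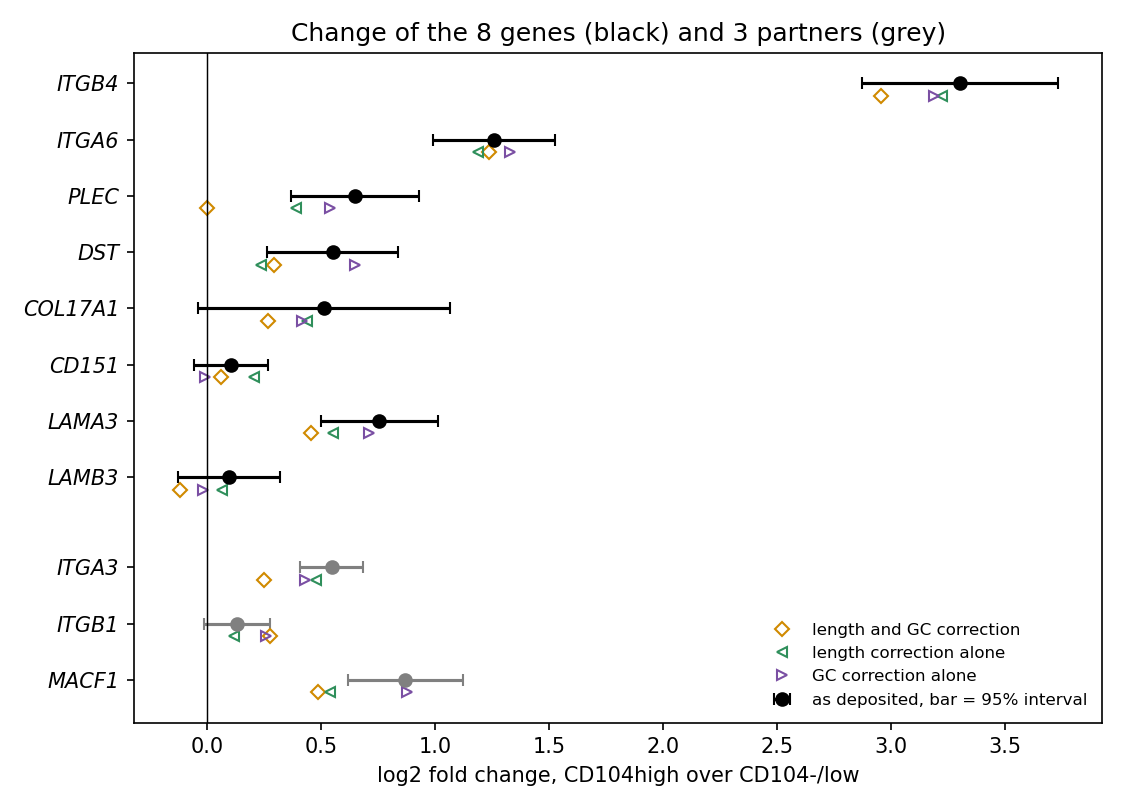
Log2 fold change of CD104high over CD104-/low for the 8 genes (black) and 3 partners (grey), with 95% limma intervals, and, as open symbols, the same value after adjustment for transcript length, GC content or both. ITGA6 stays close to 1.26, PLEC moves from 0.65 to 0.00 under the joint adjustment, and LAMB3 lies near 0 throughout.

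Plectin is the main link from beta-4 to the cytoskeleton and is also found in cells without hemidesmosomes. PLEC (ENSG00000178209.15; chromosome 8, 143915147 to 143976734, minus strand) had 258710, 267091 and 200993 scaled reads in CD104high, against 146006, 172544 and 142453 in CD104-/low. The populations did not overlap, although replicate 3 was low among the CD104high libraries. PLEC rose 1.57-fold (log2 fold change 0.65, SE 0.12, limma adjusted p = 0.0036) in the values as deposited. With the adjustment for length and GC content its log2 fold change was 0.00 (limma adjusted p = 0.987), and it was 0.39 with length alone and 0.54 with GC content alone.

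DST (ENSG00000151914.20; chromosome 6, 56457987 to 56954628, minus strand) had 27908, 24418 and 21552 scaled reads in CD104high, against 14397, 19721 and 16392 in CD104-/low. Replicate 2 of CD104-/low came close to replicate 3 of CD104high without passing it. DST rose 1.47-fold (log2 fold change 0.55, SE 0.13, limma adjusted p = 0.00821), and by 0.29 on the log2 scale with the length and GC adjustment (adjusted p = 0.0208). The gene has 35 annotated transcripts in GENCODE 29, and the summed value leaves unsaid whether the epithelial BPAG1e form was among those read.

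MACF1, the relative of DST that links actin and microtubules, gave 32131, 30785 and 30688 scaled reads in CD104high, against 14295, 20099 and 17298 in CD104-/low. It rose by 0.87 on the log2 scale (SE 0.11, limma adjusted p = 0.000676), and by 0.49 with the length and GC adjustment. The log2 ratio of DST to MACF1 was -0.35 ± 0.15 in CD104high and -0.03 ± 0.04 in CD104-/low (SD, n = 3 each). These values did not overlap (exact permutation p = 0.1, the smallest possible, 0.125 adjusted over 5 ratios). The log2 ratio of DST to PLEC was -3.29 ± 0.14 in CD104high and -3.20 ± 0.13 in CD104-/low (SD, n = 3 each), a difference of -0.10 with an exact permutation p of 0.5, and of 0.29 in the adjusted values.

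Of the 5 other plakins, the family of PLEC and DST, 4 rose and 0 fell, with a median log2 fold change of 0.66. Of all genes 21.8% were called higher, and of those with a transcript of at least 10 kb 45.9%. Periplakin (PPL), a linker of keratins to the cell cortex, had 788, 754 and 771 scaled reads in CD104high, against 197, 261 and 275 in CD104-/low. That was 3.18-fold higher in CD104high (log2 fold change 1.67, SE 0.14, limma adjusted p = 0.000228). Desmoplakin (DSP, 0.66 on the log2 scale), envoplakin (EVPL, 0.37) and MACF1 made up the other rises, and EPPK1 did not pass, at 0.24. DSP and EVPL fall outside the rule for named genes and are named to spell out the count. With the length and GC adjustment 3 of these 5 plakins were called higher and 0 lower, beside 19.6% and 21.1% of all genes. Their median was then 0.43.

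COL17A1 (ENSG00000065618.21; chromosome 10, 104031286 to 104085957, minus strand) encodes the transmembrane collagen that bridges the plaque and laminin-332. It was the lowest of the 8 genes, with 114, 138 and 115 scaled reads in CD104high, against 92.5, 60.7 and 109 in CD104-/low. The populations did not overlap, yet replicate 3 of CD104-/low lay just below the lowest CD104high library. The log2 fold change of 0.51 did not pass (SE 0.24, 95% interval -0.04 to 1.07, limma adjusted p = 0.117). In the authors' deposited table it was 0.49 with an adjusted p of 0.0629. It was 0.27 with the length and GC adjustment (limma adjusted p = 0.432) and 0.26 with quantile normalization (limma adjusted p = 0.421). Leaving out replicate 2 of CD104-/low gave 0.28.

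**Figure D3:**
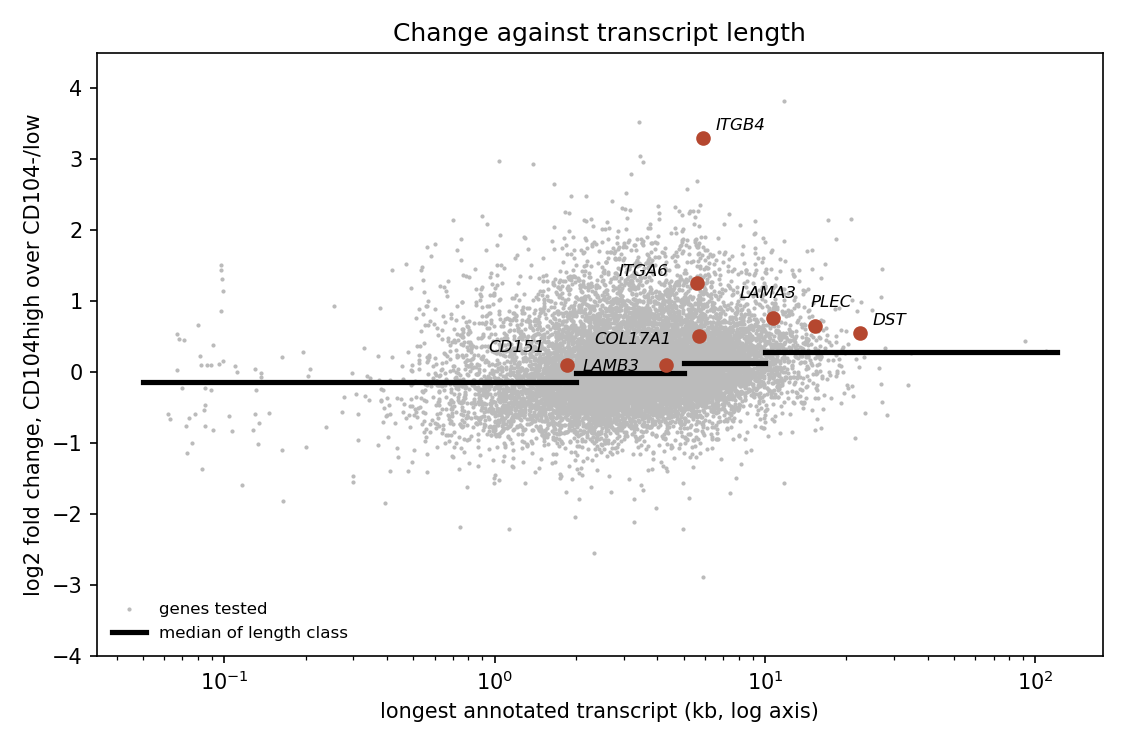
Log2 fold change of CD104high over CD104-/low (limma) against the longest annotated transcript (kb, log axis) for the tested genes matched to GENCODE 29, with the 8 genes in red. Black lines are the medians of 4 length classes, and run from -0.14 under 2 kb to 0.28 at 10 kb or more. LAMA3, PLEC and DST are in the longest class.

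Change and transcript length went together across the table. Among 566 tested genes whose longest annotated transcript is at least 10 kb, 45.9% were called higher in CD104high and 9.36% lower, against 11% and 29.2% of 2798 genes under 2 kb. LAMA3 (10.7 kb), PLEC (15.2 kb) and DST (22.4 kb) all belong to the first class. This class and the adjustment rest on the longest annotated transcript, which need not be the one expressed. PLEC is also richer in G and C (67%) than 98.5% of the tested genes, and of the 25 genes with at least 10 kb and at least 60% GC, 84% were called higher. ITGA6 (5.62 kb, 42.9% GC), ITGB4 (5.92 kb) and COL17A1 (5.69 kb) fall in the class of 5 to 10 kb. Of the 3429 genes in that class 31.9% were called higher and 14% lower, with a median log2 fold change of 0.13. Among the 3 long genes LAMA3 and DST still passed in the adjusted values. Whether length and GC content account for the changes of these genes was not tested beyond this adjustment. The adjustment also takes away any true difference that goes with length or GC content.

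Of the laminin-332 chains described here, LAMA3 passed and LAMB3 did not. LAMA3 (ENSG00000053747.16; chromosome 18, 23689443 to 23956222, plus strand), the chain that integrins bind, had 3945, 3440 and 4092 scaled reads in CD104high, against 1918, 2493 and 2406 in CD104-/low. No library of one population reached the other. LAMA3 rose 1.69-fold (log2 fold change 0.76, SE 0.11, limma adjusted p = 0.00123), and by 0.46 on the log2 scale with the length and GC adjustment (adjusted p = 0.00863).

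LAMB3 (ENSG00000196878.15; chromosome 1, 209614870 to 209652466, minus strand) had 11548, 10985 and 13633 scaled reads in CD104high, against 10969, 10292 and 12480 in CD104-/low. The populations overlapped, with replicate 3 highest in both. The log2 fold change was 0.10 with a 95% interval of -0.13 to 0.32 (limma adjusted p = 0.451), and -0.12 with the length and GC adjustment (adjusted p = 0.423).

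The log2 ratio of LAMA3 to LAMB3 was -1.65 ± 0.10 in CD104high and -2.31 ± 0.24 in CD104-/low (SD, n = 3 each), a difference of 0.66 (exact permutation p = 0.1, the smallest possible, 0.125 adjusted over 5 ratios). The ratio did not overlap between the populations.

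RefSeq promoter windows (GRCh38.p14) were matched for 5 of the 8 genes, ITGA6, DST, COL17A1, LAMA3 and LAMB3, with 10 start sites in all. The 250 bases before the first listed start are shown for ITGA6, the beta-4 partner that rose, and for the laminin chains LAMA3, which rose, and LAMB3, which did not pass. Sequences run 5′ to 3′ on the gene's strand, and capitals mark matches on either strand to TGANTCA (AP-1), TGACGTCA (the cAMP response element, CRE), GGGCGG (GC box) and CACCTG (an E-box of the kind that ZEB and SNAI repressors recognise).
ITGA6, chr2:172427086-172427335, plus strand: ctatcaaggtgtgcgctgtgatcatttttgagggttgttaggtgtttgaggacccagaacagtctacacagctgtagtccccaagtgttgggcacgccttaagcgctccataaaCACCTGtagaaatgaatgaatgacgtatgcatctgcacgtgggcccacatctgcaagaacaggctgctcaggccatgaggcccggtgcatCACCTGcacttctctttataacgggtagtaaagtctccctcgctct
LAMA3, chr18:23872770-23873019, plus strand: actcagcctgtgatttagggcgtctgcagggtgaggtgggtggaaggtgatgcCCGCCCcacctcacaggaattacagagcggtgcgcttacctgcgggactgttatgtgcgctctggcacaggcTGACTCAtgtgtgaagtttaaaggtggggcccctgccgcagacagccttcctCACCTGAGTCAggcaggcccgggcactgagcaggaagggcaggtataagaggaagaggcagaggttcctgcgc
LAMB3, chr1:209652426-209652675, minus strand: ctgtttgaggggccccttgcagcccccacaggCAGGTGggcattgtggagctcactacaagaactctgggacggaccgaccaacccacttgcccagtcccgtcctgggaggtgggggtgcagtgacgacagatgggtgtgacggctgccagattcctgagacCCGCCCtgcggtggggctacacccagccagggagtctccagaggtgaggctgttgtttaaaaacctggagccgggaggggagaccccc

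The ITGA6 window holds 2 matches to CACCTG, which begin 136 and 46 bases before the start site. Before ITGA6 start number 2 in the list there are 0 matches to CACCTG and 3 to the GC box. The LAMA3 window holds 2 AP-1 matches, 125 and 69 bases before the start, of which the second overlaps the window's single CACCTG match. The LAMB3 window has 1 GC box and 1 E-box match, both on the opposite strand, and a match to AP-1 lies before start number 3 in its list. No CRE match was found before any of the 10 start sites. Of all 34943 windows of this length in the table, 6.59% hold a match to the AP-1 letters, 1.63% to the CRE, 42.5% to the GC box and 17.5% to the E-box. The LAMA3 start in the table lies within the gene as GENCODE 29 draws it. These are matches of letters, and binding was not measured.

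Levels of different genes were set side by side as scaled reads per kb of the longest annotated transcript, which need not be the one expressed. On that scale ITGB4 stood at 2781 ± 442 in CD104high and at 287 ± 85 in CD104-/low (SD, n = 3 each). ITGA6 stood at 2580 ± 366 in CD104high and at 1075 ± 132 in CD104-/low (SD, n = 3 each). Within each CD104high library ITGB4 was slightly above ITGA6, at 2609 against 2508, 2451 against 2254 and 3284 against 2976 in replicates 1, 2 and 3, with ranges that overlapped across libraries. Within each CD104-/low library ITGB4 was below ITGA6, at 252 against 939, 384 against 1082 and 225 against 1203. The gate was set on the protein of ITGB4, so its level is not independent of the sort. ITGB1 was far above both, at 20670 ± 853 in CD104high and 18850 ± 658 in CD104-/low (SD, n = 3 each), and ITGA3 stood at 21544 ± 530 in CD104high and 14744 ± 265 in CD104-/low (SD, n = 3 each).

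LAMB3 stood above LAMA3 per kb, at 2800 ± 324 in CD104high and 2613 ± 260 in CD104-/low (SD, n = 3 each). LAMA3 stood at 359 ± 32.1 in CD104high and 213 ± 29.1 in CD104-/low (SD, n = 3 each). LAMB3 was the higher of the pair in every library. A shorter LAMA3 transcript would raise its value.

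PLEC was the highest of the 8 genes per kb in CD104high, at 15887 ± 2360, and stood at 10077 ± 1078 in CD104-/low (SD, n = 3 each). CD151 came next in CD104high, at 11618 ± 907, and had 10782 ± 470 in CD104-/low (SD, n = 3 each), where the 2 genes overlapped. In CD104high the order then ran through LAMB3, ITGB4 and ITGA6, which overlapped, to DST, LAMA3 and COL17A1, which did not. COL17A1 stood at 21.5 ± 2.35 in CD104high and 15.4 ± 4.31 in CD104-/low (SD, n = 3 each).

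**Figure D4:**
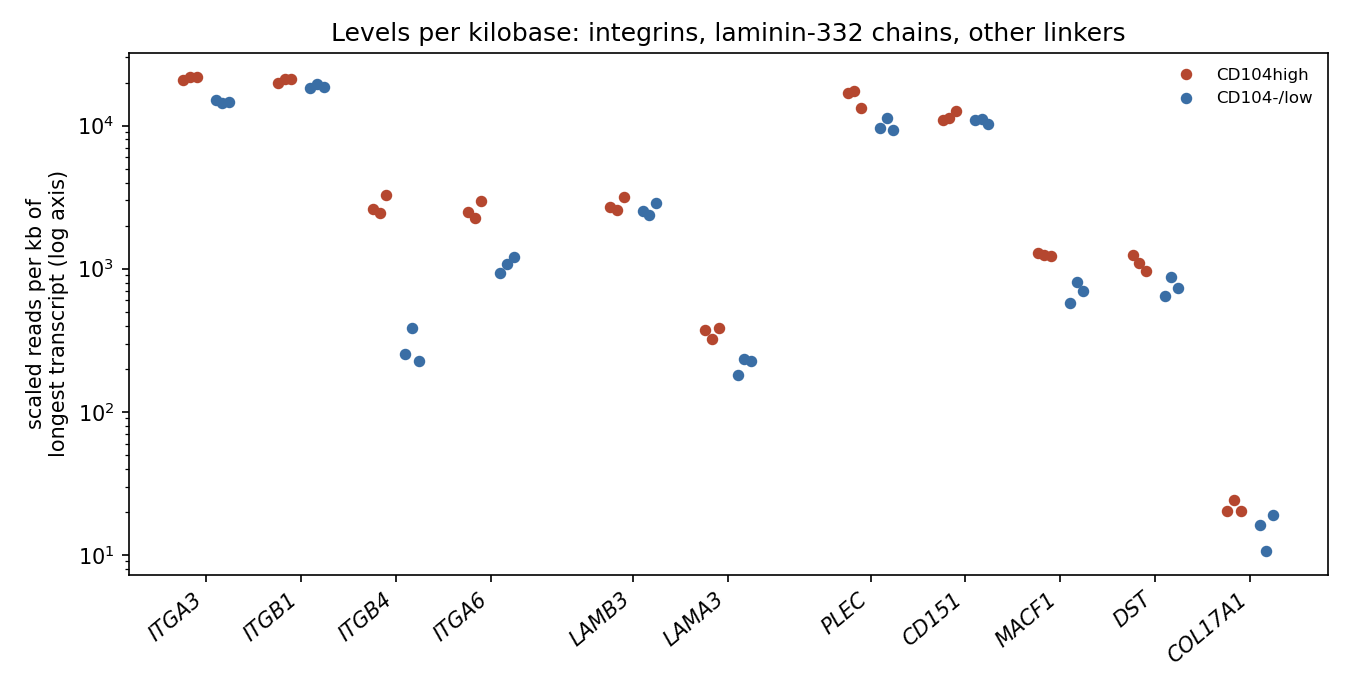
Scaled reads per kb of the longest annotated transcript (log axis) in each library, CD104high left of CD104-/low for each gene, for integrin chains, laminin-332 chains and other linkers. ITGB4, whose protein set the gate, and ITGA6 lie together in CD104high and apart in CD104-/low, and LAMB3 is far above LAMA3.

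Genes that bind, process or signal from laminin-332 and its receptors were described by lists, with no test of a list. Of 15 tested genes for receptors, attachment and processing of laminin-332, 7 rose and 1 fell, with a median log2 fold change of 0.23, beside 21.8% higher and 21.6% lower over all genes. With the length and GC adjustment 9 were called higher and 3 lower, beside 19.6% and 21.1% of all genes. COL7A1, the collagen of the anchoring fibrils that laminin-332 attaches to, had 6305, 6593 and 5521 scaled reads in CD104high, against 3039, 3541 and 2781 in CD104-/low. It rose by 0.98 on the log2 scale (SE 0.10, limma adjusted p = 0.000363), and by 0.50 with the adjustment. ITGA3 had the other smallest p among the rises. SDC4, a heparan sulfate proteoglycan of the cell surface, was the fall (log2 fold change -0.32, SE 0.08, limma adjusted p = 0.0159), with adjusted p = 0.0672 without replicate 1 of CD104-/low.

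Of 7 tested tetraspanins other than CD151, 4 rose and 0 fell, with a median of 0.31, beside 21.8% higher and 21.6% lower over all genes. Among these 4, CD37 (outside the rule for named genes) averaged only 95.5 scaled reads in CD104high and 39.6 in CD104-/low. Its populations overlapped (limma adjusted p = 0.0275). Quantile normalization, limma without the variance trend and some fits leaving out 1 library called 3 tetraspanins higher. CD82, a tetraspanin known to restrain cell migration, had 2839, 2689 and 3386 scaled reads in CD104high, against 1228, 1253 and 1537 in CD104-/low. It rose by 1.15 on the log2 scale (SE 0.12, limma adjusted p = 0.000321), and CD9, another integrin-associated tetraspanin, by 0.51. The adjusted values had 4 tetraspanins called higher and 2 lower, beside 19.6% and 21.1% of all genes.

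Of 25 genes that take part in signalling from alpha-6 beta-4, 9 rose and 3 fell, with a median of 0.08, where 21.8% of all genes were called higher and 21.6% lower. PRKCA, a protein kinase C that can phosphorylate the beta-4 tail, averaged 12893 ± 411 in CD104high and 8330 ± 383 in CD104-/low (SD, n = 3 each; log2 fold change 0.63, limma adjusted p = 0.00029). IRS1, an adaptor of insulin and growth factor receptors, rose by 0.74. NFATC2, a transcription factor, fell by 0.68, and GRB2, an adaptor that connects receptors to RAS, fell by 0.26. With the length and GC adjustment 7 were called higher and 5 lower, beside shares of 19.6% and 21.1% over all genes.

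Focal adhesions are the other integrin anchorage of these cells, tied to actin. Of 12 of their linker genes 4 rose and 2 fell, with a median of 0.20, beside 21.8% and 21.6% of all genes. In the values adjusted for length and GC content 2 were called higher and 2 lower, no more than the shares of 19.6% and 21.1% over all genes. TNS3, a tensin that binds beta integrin tails, had 12730, 10334 and 12169 scaled reads in CD104high, against 4590, 5164 and 6043 in CD104-/low (log2 fold change 1.16, SE 0.11, limma adjusted p = 0.00029). PARVA, a partner of integrin-linked kinase, rose by 0.49. FERMT1, the kindlin of epithelial cells, fell by 0.79 (SE 0.11, limma adjusted p = 0.000939), and zyxin (ZYX) fell by 0.49.

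**Figure D5:**
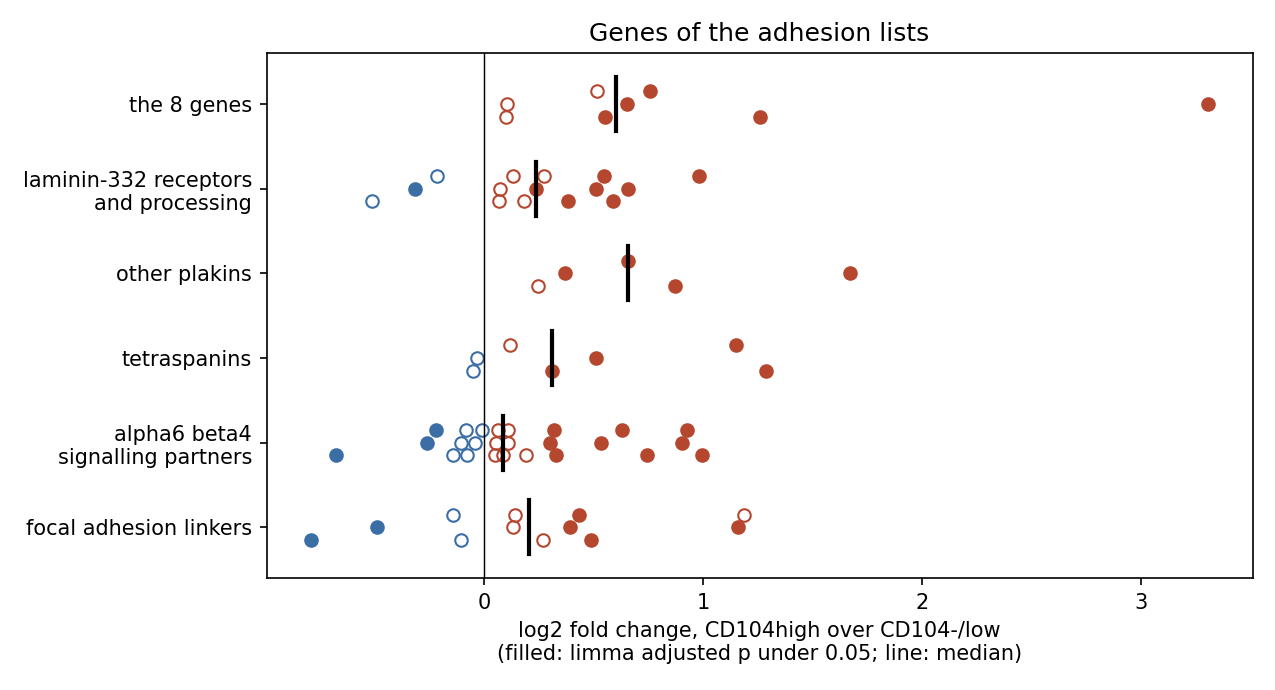
Log2 fold change of CD104high over CD104-/low for each tested gene of the adhesion lists, filled where the limma adjusted p was under 0.05 and open elsewhere, with the median of each list as a black line. The 8 genes have a median of 0.60 and the other plakins of 0.66, while the signalling partners centre on 0.08. With adjustment for length and GC content (not drawn) these medians are 0.28, 0.43 and 0.07.

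Across the 6 libraries the genes most like ITGB4 by Pearson correlation of log2(value + 1), among 12510 with a mean of at least 50, were SLC27A3, NUCB1, KCNAB2, SMPD1 and CHMP2A. Their correlations ran from 0.998 for CHMP2A to 0.9995 for SLC27A3, and their log2 fold changes from 0.46 for CHMP2A to 1.46 for KCNAB2. ITGA6 ranked 644th, at 0.97, and LAMB3 was lowest of the other 7 genes, at 0.34. These correlations are a description over 6 libraries that the sort divides into 2 groups.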

How the data were processed

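RNA sequencing of 6 libraries was used. FastQC, DESeq2 and Salmon 1.3.0 appear in no stated order in the submitters' processing notes, beside the build GRCh38 (hg38). No source used here states the annotation release or the model. The authors deposited 1 table of 15024 genes with a scaled read signal per library, their log2 fold change of CD104high over CD104-/low, and p-values. No listed gene has a 0 in any library, so genes silent in a library are not among them. Each library's signal was a whole multiple of 1 step, within 0.01, for 100% of the values, which gave recovered reads for the count tests (edgeR called 2960 genes higher and 3307 lower). If Salmon made them, these are rounded estimates.

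Differences were tested by limma 3.58.1 (R 4.3.3), with a variance trend over the mean, on log2(value + 1). Genes needed a value of 10 or more in 3 or more libraries. The fit had population as its only term, and p-values had Benjamini-Hochberg adjustment over all 14420 genes. Fold changes on this scale understate the change of low genes. Alternatives, including edgeR 4.0.16 and DESeq2 1.42.0 on recovered reads, are given at the end. The length and GC adjustment removed from each library a loess fit (span 0.5) of its deviation from the gene mean, using the longest GENCODE 29 transcript. GENCODE 29 matched 99.8% of the genes. The adjustments for length alone and GC content alone, and the joint adjustment with the replicate block, were chosen after seeing the data. The limma step was also run on simulated counts, drawn independently for each library. These held no replicate pairing and no length or GC trend, so that run does not check the p-values under either.

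The 8 genes, the lists and the rule for named genes were chosen with earlier results of these data known. The rule took the 8 genes, ITGA3, ITGB1, MACF1, KMT2C, CD44, up to 2 called genes per direction and list with the smallest p, and the 5 genes most like ITGB4. A further gene of the rule and lists is not reported here. CD44, by which both populations were positive, averaged 25592 in CD104high and 24651 in CD104-/low. Replicates of a population differed by more than sampling noise (chi-square per degree of freedom 12.7 to 44.6).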

Additional observations from a re-analysis of the deposited data

How the results depend on the processing

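Of the 8 genes, ITGB4, ITGA6, LAMA3 and DST kept their direction and their call in every alternative run, with log2 fold changes of 2.96 to 3.53, 1.15 to 1.35, 0.46 to 0.83 and 0.24 to 0.67. PLEC lost its call with the length and GC adjustment, with or without the replicate block (0.0020, adjusted p = 0.987 and 0.984). LAMB3 turned to -0.12 in both of these fits and to -0.0152 with GC content alone. CD151 was at 0.21 with length alone (adjusted p = 0.0324) and at -0.0092 with GC content alone. CD44 turned to -0.037 in both joint adjustments and to -0.0289 with length alone, and leaving out 1 library at a time gave -0.0265 (without replicate 3 of CD104high) to 0.151. ITGB1 passed with the joint adjustment (0.28, adjusted p = 0.00985, and 0.00185 with the block) and with GC content alone (0.26, adjusted p = 0.0135). The difference of the DST to PLEC ratio turned to 0.29 with the joint adjustment.

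Leaving out 1 library at a time gave 2092 to 3198 genes called higher and 2009 to 3197 lower over the whole table, the lowest of both without replicate 1 of CD104-/low. It left 5 of the 8 genes called higher each time. Quantile normalization called 2810 genes higher and 3308 lower. The labels do not say whether the replicate numbers pair the libraries, and the main fit and the permutation tests did not pair them. Same-numbered libraries had correlations of deviations of 0.08, 0.36 and 0.32, against -0.32 to 0.01 for the other pairs. With the replicate block, 4047 and 3829 genes were called, and the calls of the 8 genes were unchanged. The same-numbered library was each library's closest match, which is only a hint. Deviations were taken from each gene's mean in its population, so correlations above 0 for some pairs force others below 0. Whether the libraries are paired was not tested. COL17A1 had the fewest reads of the 8 genes, at 60.7 to 138 scaled reads, and how far depth limits its value was not tested.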
